A study of Mus musculus with 4 samples.

Results

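The regions described here are the pericentromeric bins of the 5 mouse chromosomes that carry ribosomal DNA (rDNA), namely chromosomes 12, 15, 16, 18 and 19. They were chosen by position alone, as the 40 kb bins that start from 3 Mb to below 8 Mb on these chromosomes in the mm9 genome and that were kept in both contact matrices of the series. Of 625 such bins, 614 were kept, against 62362 kept bins of 66382 in all. The same interval of the other 14 autosomes held 1617 kept bins and served as the main comparison. Contacts were measured by Hi-C, in which DNA ends that lie close in the nucleus are ligated and sequenced as pairs, with chromatin cut by HindIII in male mouse embryonic stem cells (mESCs), wild-type (WT) or with the Firre long non-coding RNA locus deleted (Firre KO). Each group had 2 libraries, described in the methods as technical duplicates and pooled in 1 matrix, so no value below has a replicate check and no significance test was possible. The WT cells were the N3 line grown in 2i medium, and the Firre KO cells were also in 2i but, by the methods, on irradiated fibroblasts that were depleted beforehand, although a sentence of the results puts both on feeders. The deleted allele, which the methods describe for the mouse, came from recombination between loxP sites placed on both sides of the gene, and the methods do not say whether the KO cells came from N3. The labelled genotype and, by the methods, the feeders therefore differed together and cannot be told apart. No source used here maps rDNA arrays in these cells, so "rDNA chromosome" is a textbook assignment that can differ between mouse strains.

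Mouse autosomes are telocentric, with the centromere at one end. Next to it lies pericentromeric heterochromatin built of satellite repeats, and pericentromeres of several chromosomes gather in interphase nuclei into dense clusters called chromocenters. On some chromosomes arrays of ribosomal RNA genes lie beside the centromere, and active arrays assemble the nucleolus, which brings chromosomes that carry them together and is flanked by heterochromatin. Most of this repeat sequence is missing from the reference, and the intervals are the first assembled sequence of each chromosome, which still holds repeats. On all 19 autosomes the first assembled base was 3000001.

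The sequences below are shown because a few bins in the first Mb carried much of the contact signal, and they show how much or how little sequence the bins at both ends of such a bin pair had in common. The share of common sequence was counted as the percentage of the 31-base words of both bins that also occur in the partner, on either strand. The chromosome 12 bin that starts at 3080001 and the first bin of chromosome 9 were joined by 3166 WT read pairs, and 7.56% of the words of both bins together were common, though only 0.45% of those of the chromosome 12 bin itself. Their longest exact common run was 158 bases, and its letters are those of the mouse major satellite, the repeat of pericentromeric heterochromatin. Of the 119 kept rDNA-chromosome bins in the first Mb, no other bin had a word in common with that chromosome 9 bin. The first 100 bases of the run are in capitals, with the chromosome 12 copy given as its reverse strand (mm9):
chr9:3000450-3000569: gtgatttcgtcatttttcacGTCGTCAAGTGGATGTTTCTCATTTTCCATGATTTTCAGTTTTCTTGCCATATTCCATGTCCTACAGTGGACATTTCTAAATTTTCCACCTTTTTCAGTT
chr12:3109930-3110049: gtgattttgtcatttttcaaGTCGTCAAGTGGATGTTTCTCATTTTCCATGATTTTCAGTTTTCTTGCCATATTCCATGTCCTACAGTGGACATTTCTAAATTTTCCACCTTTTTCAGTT
The bin of chromosome 4 from 3160001 to 3200000 and the first bin of chromosome 15 were joined by 50 WT read pairs, shared 29.3% of their words and had a common run of 461 bases, of which the first 100 are in capitals:
chr4:3189027-3189146: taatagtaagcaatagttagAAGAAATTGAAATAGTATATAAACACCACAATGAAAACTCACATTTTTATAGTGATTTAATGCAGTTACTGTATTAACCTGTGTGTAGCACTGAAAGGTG
chr15:3006631-3006750: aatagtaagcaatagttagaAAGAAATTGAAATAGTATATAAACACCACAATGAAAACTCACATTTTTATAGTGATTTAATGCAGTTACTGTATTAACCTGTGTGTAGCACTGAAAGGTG
The chromosome 16 bin that starts at 3080001 and the chromosome 19 bin that starts at 3120001 were joined by 7 WT read pairs and shared 0.334% of their words, with a longest common run of 51 bases, in capitals:
chr16:3118500-3118590: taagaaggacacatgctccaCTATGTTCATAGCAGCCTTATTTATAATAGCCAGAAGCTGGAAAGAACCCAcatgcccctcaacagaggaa
chr19:3131078-3131168: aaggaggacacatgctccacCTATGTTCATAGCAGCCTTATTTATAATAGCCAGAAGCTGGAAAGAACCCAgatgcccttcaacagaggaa
The chromosome 16 bin from 3240001 to 3280000 had more read pairs to other rDNA intervals than any other member bin. It is shown by its first HindIII site, in capitals, where the ligated fragments of the assay begin:
chr16:3242562-3242661: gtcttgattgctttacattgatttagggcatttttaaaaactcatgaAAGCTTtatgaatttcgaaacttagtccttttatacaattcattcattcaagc

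The WT matrix held 65611035 read pairs, of which 16.1% joined different chromosomes, and that of the Firre KO group held 46635652, of which 35.6% did. The label was checked at the locus, listed as 6720401G13Rik in the annotation (chrX:47908921-47988498, minus strand). The X chromosome bin from 47920001 to 47960000, which lies wholly within it, held 1550 of 906921 X chromosome read pairs in WT and 1144 of 796087 in the Firre KO group. A complete deletion would leave this bin empty. The read pairs at the locus therefore go against the label, so the matrix of that group is called the KO-labelled matrix throughout, and every direction between the groups rests on the label.

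In both matrices the pericentromeric intervals of rDNA chromosomes had more contacts with each other than their whole chromosomes did, as did the same intervals of the other autosomes. Contacts are given as observed over expected (O/E), the balanced contact signal of a set of bin pairs over the mean of all kept bin pairs of the same chromosome pair. An O/E of 1 is thus the level of the 2 whole chromosomes. In WT, O/E over the 10 pairs of rDNA intervals was 2.15 (95% counting interval 2.0 to 2.35, from 2106 read pairs). It was 1.68 (1.63 to 1.74) between rDNA intervals and the other 14 intervals and 1.95 (1.90 to 2.02) among those 14. In the KO-labelled matrix the values were 1.92 (1.83 to 2.04, from 3203 read pairs), 1.66 (1.63 to 1.70) and 1.69 (1.66 to 1.74). The rDNA value over that of the other intervals was 1.10 (1.02 to 1.19) in WT and 1.14 (1.08 to 1.19) in the KO-labelled matrix. The intervals in parentheses reflect the counting of read pairs alone, and PCR copies, which carried no molecular identifiers, could make them too narrow. The log2 difference between the matrices, KO-labelled over WT, was -0.17 (-0.29 to -0.04) between rDNA intervals and -0.21 (-0.25 to -0.16) between the other intervals. For rDNA intervals this difference had the opposite sign with uncorrected read pairs (0.27), from 4 to 8 Mb (0.36), without bins in the lowest or highest 5% of depth (0.34) and without bins with over 20% of words found on another autosome (0.38). The WT values rested on chromosome 16: without it, O/E between rDNA intervals was 1.18 and the ratio to the other intervals was 0.605. The log2 difference was then 0.61. Without chromosome 19 the WT ratio was 0.939 (0.861 to 1.02) and the log2 difference 0.07 (-0.08 to 0.22). The WT ratio was also below 1 with uncorrected read pairs (0.717) and from 4 to 8 Mb (0.796). It was below 1 too without those bins of extreme depth (0.774) and without those with over 20% of such words (0.817). The KO-labelled ratio was below 1 with the expectation taken from the bins' interchromosomal totals, at 0.961, with a counting interval that holds 1 (0.913 to 1.01).

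**Figure D1:**
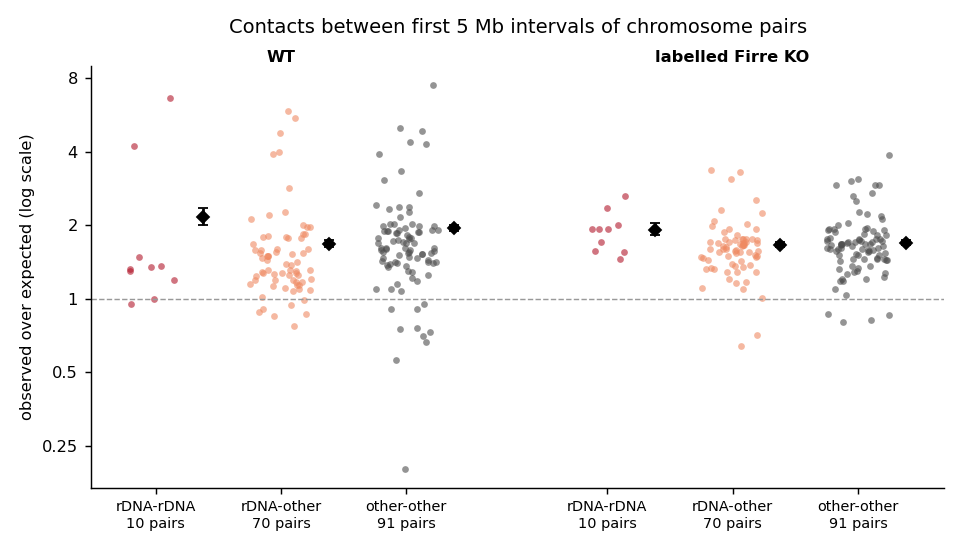
Each point is O/E (log scale) between the first 5 Mb intervals of 1 chromosome pair, for 10 pairs of rDNA chromosomes, 70 pairs of an rDNA chromosome and another autosome, and 91 pairs of other autosomes, in both matrices. Diamonds give the value of the whole class with its 95% counting interval, and the dashed line is the level of the whole chromosome pair; in WT, 2 rDNA pairs stand above 4 and the other 8 lie between 0.957 and 1.49.

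The 10 pairs of rDNA intervals were uneven in WT. Chromosomes 16 and 19 had an O/E of 6.63 (5.61 to 7.89, 457 read pairs) in WT and 2.65 (2.24 to 3.24, 414 read pairs) in the KO-labelled matrix. Chromosomes 16 and 18 had 4.21 (3.56 to 5.19, 383 read pairs) and 2.35 (2.02 to 2.94, 366 read pairs). These ranked 2 and 10 among the 171 autosomal pairs of intervals in WT, and the remaining 8 pairs from 92 to 155. Without bin pairs of at least 3 read pairs, the WT values were 3.75 (3.13 to 4.6) and 2.59 (2.09 to 3.46), again ranked 2 and 10.

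Chromosome 12 with chromosomes 15, 16, 18 and 19 gave 1.3, 1.49, 1.19 and 1.36 in WT, and 2.01, 1.72, 1.93 and 1.45 in the KO-labelled matrix. Chromosome 15 with 16, 18 and 19 gave 1.33, 1.35 and 0.997 in WT, against 1.57, 1.94 and 1.56. Chromosomes 18 and 19 gave 0.957 (0.792 to 1.39, 152 read pairs) there and 1.93 (1.71 to 2.32, 414 read pairs) in the KO-labelled matrix. The 2 pairs with chromosome 16 named above were therefore lower in the KO-labelled matrix and the other 8 were higher. The counting interval of the log2 difference lay off 0 for both lower pairs, but for only 5 of the 8 higher ones. On the log2 scale, KO-labelled over WT, the differences ran from -1.32 (-1.65 to -0.99) for chromosomes 16 and 19 to 1.01 (0.70 to 1.32) for chromosomes 18 and 19. Such differences were not particular to rDNA pairs. Among the other autosomes, chromosomes 5 and 13 had 1.60 (1.21 to 1.99), and chromosomes 7 and 11 had -1.27 (-1.58 to -0.97). Both lower rDNA pairs held bin pairs of at least 3 read pairs. Without these the difference was -0.79 (-1.13 to -0.44) for chromosomes 16 and 19 and -0.24 (-0.61 to 0.13) for chromosomes 16 and 18. That filter was set by each matrix's own counts. It took more from WT, keeping 269 of 383 read pairs for chromosomes 16 and 18 in WT and 337 of 366 in the KO-labelled matrix.

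An O/E of at least 1.5 was reached by 2 of the 10 rDNA pairs in WT, where 7.88% of all pairs of 5 Mb windows on different autosomes reached it, and by 9 of the 10 in the KO-labelled matrix, where 4.39% did. Pairs of first intervals in general passed more often than all window pairs. Of the 153 pairs of first windows with enough bins, 55.6% did in WT and 69.3% in the KO-labelled matrix. Among the 91 pairs of other intervals 63.7% passed in WT, more than the 20% of rDNA pairs. In the KO-labelled matrix 70.3% did, fewer than the 90% of rDNA pairs. Of the 10 rDNA pairs, 4 were at least 1.5-fold higher in the KO-labelled matrix than in WT, against 8.35% of all window pairs. Another 2 were at least 1.5-fold lower, against 5.72%. Both shares cover windows along whole chromosomes, so they are no measure of how first intervals as such differed between the matrices. In the median pair, O/E was 1.34 in WT and 1.93 in the KO-labelled matrix among rDNA intervals, and 1.61 and 1.65 among the other intervals.

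**Figure D2:**
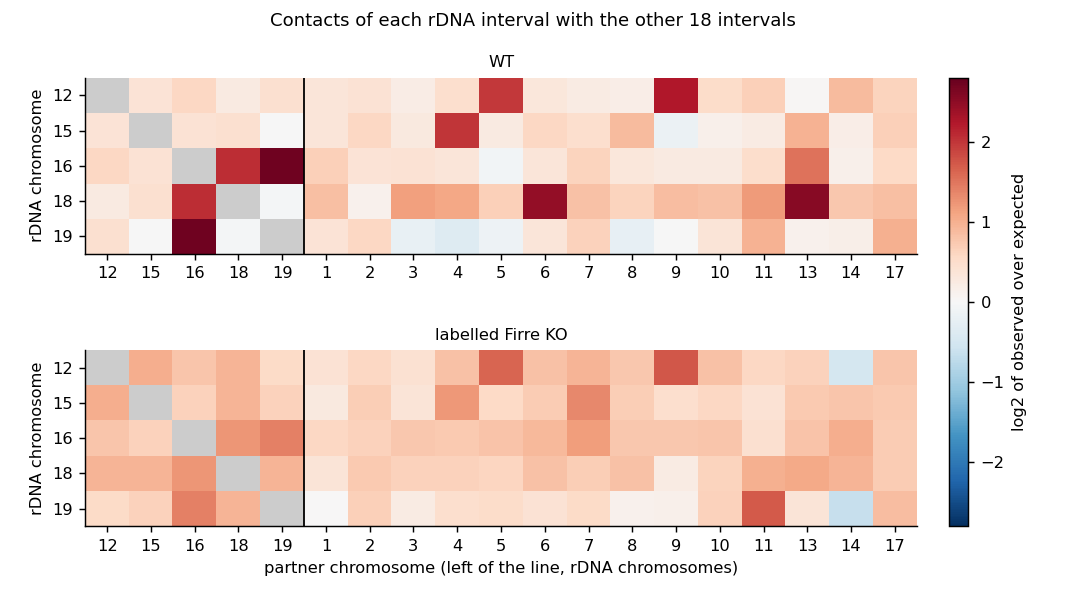
Rows are the intervals of the 5 rDNA chromosomes and columns their partner intervals on the other 18 autosomes, coloured by log2 of O/E (grey, same chromosome), in WT above and the KO-labelled matrix below. The WT map holds a few dark cells, among them chromosome 16 with 18 and 19 and chromosome 18 with 6 and 13, and the lower map is more even.

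The contacts were concentrated at the assembled end of the chromosome. Between the segments from 3 to 4 Mb of rDNA chromosomes, O/E was 21.4 (18.1 to 25.8, 356 read pairs) in WT and 9.48 (7.98 to 11.7, 319 read pairs) in the KO-labelled matrix. Without bin pairs of at least 3 read pairs these were 8.18 (6.29 to 11.1) and 7.71 (6.35 to 9.75), and 4.65 (4.21 to 5.31) and 4.2 (3.84 to 4.68) among the other autosomes. With those bin pairs kept but chromosome 16 left out, the values were 1.81 (1.17 to 3.64, 51 read pairs) and 4.39 (3.48 to 5.98, 136 read pairs), against 9.92 (9.19 to 10.8) and 5.91 (5.51 to 6.44) among the other autosomes. From 4 to 8 Mb the values were lower. There, rDNA intervals had 1.13 (1.05 to 1.28) in WT and 1.45 (1.37 to 1.58) in the KO-labelled matrix, and the other intervals 1.41 (1.36 to 1.49) and 1.34 (1.3 to 1.39).

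Partners beyond the first Mb had lower values. With the segment from 4 to 8 Mb of other rDNA chromosomes, O/E of the whole rDNA intervals was 1.29 (1.23 to 1.38) in WT and 1.55 (1.5 to 1.62) in the KO-labelled matrix. With the segment from 8 to 13 Mb it was 1.39 (1.34 to 1.47) in WT and 1.38 (1.33 to 1.44) in the KO-labelled matrix. With 13 to 20 Mb it was 1.19 (1.15 to 1.26) and 1.24 (1.19 to 1.29). The fall was not particular to rDNA chromosomes. Among the other autosomes the values were 1.54 and 1.45 with 4 to 8 Mb and 1.39 and 1.33 with 8 to 13 Mb. They were 1.31 and 1.28 with 13 to 20 Mb. With the distal ends of all other autosomes, about their last 5 Mb, O/E of the rDNA intervals was 1.26 (1.24 to 1.29) and 1.18 (1.16 to 1.20).

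**Figure D3:**
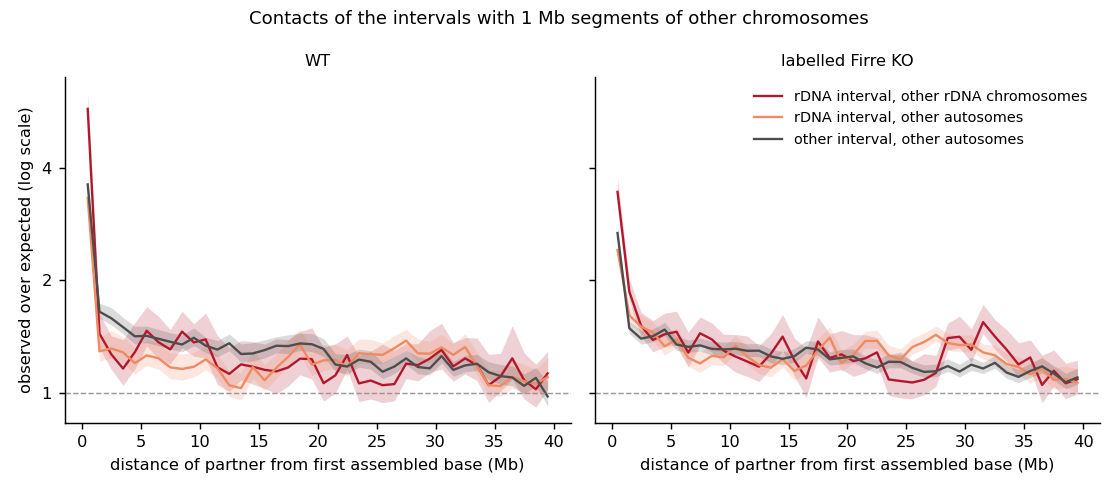
O/E (log scale) of the intervals with successive 1 Mb segments of other chromosomes, by the distance of the segment from the first assembled base, in WT (left) and the KO-labelled matrix (right); shading gives the 95% counting interval. All 3 kinds of pair peak in the first Mb, at 5.75 and 3.45 between rDNA chromosomes, and lie below 2 in every later segment.

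Within the first Mb, a handful of bins held much of the signal. In WT the 10 strongest of the 614 member bins, all in the first Mb and 5 of them on chromosome 16, held 31.4% of the balanced contacts between rDNA intervals, and in the KO-labelled matrix the 10 strongest, again all in the first Mb, held 10.3%. The median member bin had 5 read pairs to other rDNA intervals in WT and 10 in the KO-labelled matrix, and 11 and 3 bins had none.

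On chromosome 16, bin 3240001 to 3280000, shown above by its HindIII site, had 244 read pairs to other rDNA intervals in WT, an O/E of 56.1 (48.5 to 65.6), and 102 read pairs, an O/E of 15.1 (12 to 19.6), in the KO-labelled matrix. The bin that starts at 3080001 had an O/E of 95.6 (67.6 to 138) from 53 read pairs in WT and 12.2 (5.13 to 31.6) from 10 in the other matrix. Both bins made most of their balanced contacts with other chromosomes, 63.6% and 87.7% in WT, against 20.7% for the median bin of the chromosome 16 interval. The 2 bins differed in depth and in sequence. The first held 2123 WT read pairs and 6.98% of its 31-base words also lay in the interval of another autosome, whereas the second held 354 read pairs and had 57.3% of its words elsewhere.

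Bin pairs with at least 3 read pairs, called busy here, numbered 40 between rDNA intervals in WT and 12 in the KO-labelled matrix. Every one of them had an end on chromosome 16. They held 23.3% and 3.53% of the balanced contacts. Busy bin pairs were not particular to rDNA intervals. In WT, 40 of the 1886 bin pairs with a read pair between rDNA intervals were busy, and 612 of 11642 between the other intervals. In the KO-labelled matrix these were 12 of 3076 and 542 of 16247. Between the other intervals, busy bin pairs held 11.5% of the balanced contacts in WT and 4.36% in the KO-labelled matrix. When busy bin pairs were left out of observed and expected values alike, O/E between rDNA intervals was 1.66 (1.55 to 1.81) in WT and 1.85 (1.77 to 1.97) in the KO-labelled matrix. The ratio to the other intervals was then 0.959 (0.892 to 1.03) in WT and 1.14 (1.09 to 1.20) in the other matrix, so the order of rDNA and other intervals turned in WT. Bin pairs were left out by each matrix's own counts, 40 in WT and 12 in the KO-labelled matrix. The filter lowered WT more, although WT had fewer read pairs between rDNA intervals, and why it did was not tested. Since different bin pairs were left out of each matrix, values without busy bin pairs are no comparison of the matrices.

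Common sequence was counted for the bin pairs with both ends in the first Mb, of which 37 were busy in WT and 11 in the KO-labelled matrix. The median busy bin pair shared 0.357% of 31-base words in WT and 1.23% in the KO-labelled matrix, and the median bin pair without a read pair shared 0.357% in both. Over whole intervals, the 10 rDNA pairs shared from 5.13% to 8.46% of their words, a median of 6.78%, against 8.11% among other autosomes. Across all 171 pairs, which share intervals and are not independent, Spearman's rho between common words and O/E was 0.248 in WT and 0.331 in the KO-labelled matrix. The part of common sequence in the contacts was not tested beyond leaving out bins with over 20% of words found in the interval of another autosome. Without those bins O/E between rDNA intervals was 1.32 (1.24 to 1.44) in WT and 1.71 (1.64 to 1.81) in the KO-labelled matrix.

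Partners outside the rDNA chromosomes were also uneven. In WT the intervals of chromosomes 13, 6 and 4 had the highest O/E with rDNA intervals, at 2.54, 2.14 and 1.90, and those of 3, 2 and 8 the lowest, at 1.35, 1.34 and 1.31. In the KO-labelled matrix the same intervals had 1.67, 1.67 and 1.73, and 1.41, 1.58 and 1.57. There, chromosomes 7, 11 and 5 were highest, at 1.95, 1.94 and 1.84. Both orders rested in part on busy bin pairs. Without them chromosomes 7, 11 and 17 were highest in the KO-labelled matrix, at 1.95, 1.89 and 1.70. In WT chromosomes 13, 17 and 11 were highest, at 1.98, 1.69 and 1.61, chromosomes 4 and 6 had 1.44 and 1.43, and chromosomes 5, 8 and 9 were lowest, all at 1.21 to 1.22. The highest single pair of this kind in WT was chromosome 13 with 18, at 5.89 (5.20 to 6.81, 340 read pairs), which had 3.77 (3.20 to 4.59) without busy bin pairs and 2.09 (1.79 to 2.52) in the other matrix. Chromosome 12 with 9 had 4.76 (4.45 to 5.72) and 3.36 (3.0 to 4.06), and 1.24 (0.963 to 2.24) and 1.59 without busy bin pairs. Of its 3279 WT read pairs, 3166 were the single satellite-bearing bin pair shown above. In the KO-labelled matrix that bin pair had 276 of 447. Chromosome 19 with 11 had a higher value in the KO-labelled matrix, at 1.97 (1.77 to 2.30) in WT and 3.3 (3.07 to 3.62) there.

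Chromosome interiors were contacted close to expectation by the rDNA intervals. With bins from 20 Mb to 10 Mb before the end of other autosomes, O/E of the rDNA intervals was 1.08 (1.08 to 1.09) in WT and 1.12 (1.12 to 1.13) in the KO-labelled matrix, and that of the other intervals 0.969 (0.965 to 0.973) and 1.02 (1.02 to 1.02). Interiors of rDNA chromosomes and of other autosomes gave similar values, 1.06 and 1.09 in WT and 1.15 and 1.12 in the KO-labelled matrix. Contacts between rDNA intervals thus exceeded their own contacts with interiors by 1.99-fold (1.85 to 2.14) in WT and 1.71-fold (1.63 to 1.79) in the KO-labelled matrix. Without busy bin pairs the WT ratio was 1.53 (1.43 to 1.64), and without chromosome 16 the WT values were 1.18 between rDNA intervals and 1.07 with interiors.

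Interior contacts of each rDNA interval were higher with gene-rich than with gene-poor bins, as were those of most but not all other intervals. Interior bins were put in 5 classes by the protein-coding genes within 1 Mb. From the poorest class, with 0 to 5 genes, to the richest, with 29 to 130, O/E with rDNA intervals went from 0.846 (0.833 to 0.86) to 1.33 (1.32 to 1.35) in WT and from 0.910 (0.899 to 0.922) to 1.39 (1.38 to 1.40) in the KO-labelled matrix. For the other intervals the range was 0.885 to 1.08 and 0.972 to 1.08. Chromosome 19, whose interval holds 180 protein-coding genes, had the steepest rise, from 0.724 to 2.16 in WT. The rDNA intervals without it ran from 0.884 to 1.09 in WT and from 0.959 to 1.20 in the KO-labelled matrix. Of all 19 intervals, chromosomes 19 and 11 had the highest ratio of the richest to the poorest class in both matrices. Chromosome 14, whose interval holds 106 protein-coding genes but only 27 kept bins, had the lowest, at 0.675 in WT and 0.735 in the KO-labelled matrix. Chromosome 9 was also below 1, at 0.957 and 0.819, and so was chromosome 13 in WT, at 0.994. In the KO-labelled matrix chromosomes 3, 1 and 8 were below 1 too, at 0.812, 0.857 and 0.972.

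**Figure D4:**
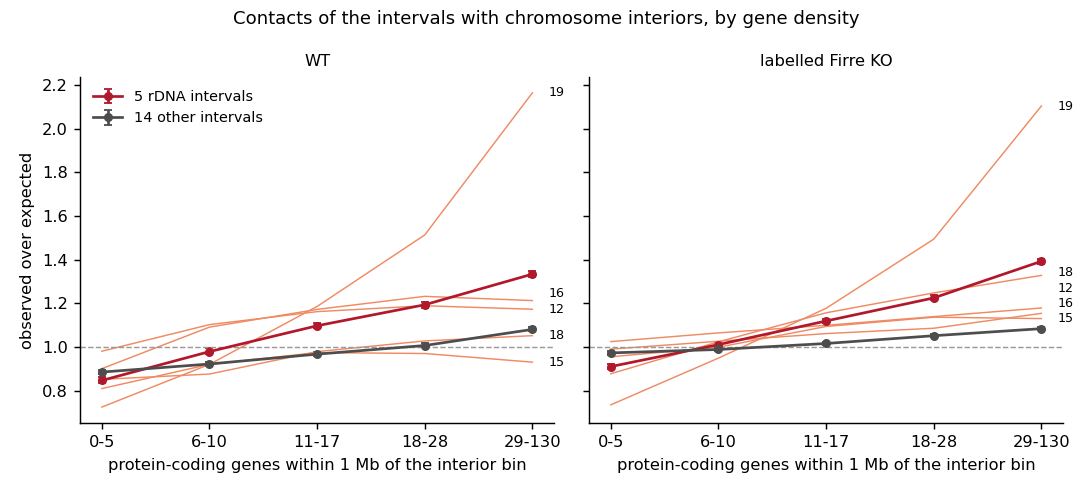
O/E of the intervals with interior bins of other autosomes in 5 classes of protein-coding genes within 1 Mb, in WT (left) and the KO-labelled matrix (right). Thick lines are the 5 rDNA and the 14 other intervals with 95% counting intervals, thin lines single rDNA intervals labelled by chromosome; chromosome 19 reaches 2.16 and 2.10 in the richest class.

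Features that were not used to choose the rDNA intervals varied among them and overlapped with those of the other intervals. Their bins had a median GC content of 42.2%, against 40.5% in the other intervals and 41.4% in interiors, and 323 HindIII sites per Mb against 336. Single chromosomes spread around these values, with a GC content of 40.4% on chromosome 12 and 40.6% on 15, 345 and 355 HindIII sites per Mb on chromosomes 15 and 18, and a GC content of 45.6% on chromosome 11, which carries no rDNA by this assignment. Per bin they held a median of 2106 read pairs in WT and 1528 in the KO-labelled matrix, against 1540 and 1140. Contacts between chromosomes made up a median of 20.1% of the balanced signal of a bin in WT and 45.8% in the KO-labelled matrix, against 16.4% and 39.0%. Chromosome 19 was the most extreme, at 30.5% and 55.9%, with a median GC content of 48.7%. The median share of 31-base words found in the interval of another autosome was 6.98% per bin, against 11.6% in the other intervals. On each rDNA chromosome this share was highest in the first Mb, at 36.4% for chromosome 16, the highest of the 19 autosomes, 24.3% for 18, 20.6% for 15, 19.4% for 19 and 19.2% for 12. Several other autosomes were also high there, such as chromosomes 13 at 27.9% and 6 at 27.6%.

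Whole rDNA chromosomes also had more contacts with each other than the mean of all autosomal pairs, though by little in the KO-labelled matrix. The balanced signal between them was 1.39 times the mean of all autosomal pairs in WT, with single pairs from 1.18 to 1.80, and 1.11 times in the KO-labelled matrix, with single pairs from 0.971 to 1.29. These are short chromosomes, at most 121257530 bases long. The 5 shortest other autosomes gave 1.15 and 1.10. They are not matched in length, at 95272651 to 125194864 bases against 61342430 to 121257530, and the part of length was not tested. Against the mean of all autosomal pairs in place of that of the same chromosome pair, O/E between rDNA intervals was therefore higher, 3.09 (2.87 to 3.37) in WT and 2.17 (2.07 to 2.31) in the KO-labelled matrix.

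Genes in the intervals show the scale of single loci, and most of them were read with few pairs. At the chromosome 12 end lies 1700012B15Rik, the protein-coding gene nearest the start (chr12:3236611-3249999), whose bins had an O/E with other rDNA intervals of 2.08 (1.23 to 5.02, 19 read pairs) in WT and 2.68 (1.80 to 4.89, 33 read pairs) in the KO-labelled matrix. Farther in lie Dnmt3a, which encodes a de novo DNA methyltransferase (chr12:3806007-3914443), and Pomc, the precursor of melanocortins and beta-endorphin (chr12:3954951-3960618). Dnmt3a had 0.925 (0.443 to 3.62, 14 read pairs) and 2.31 (1.63 to 4.57, 45 read pairs), and Pomc 0.953 (0.485 to 2.90) and 2.42 (1.65 to 4.11). Apob, which encodes the main protein of low-density lipoprotein and reaches past the interval's end (chr12:7984454-8023641), had 1.20 (0.428 to 4.36) and 2.32 (1.15 to 5.09). Klhl29, the longest gene there, had 1.38 (1.03 to 2.08) and 1.42 (1.13 to 1.97).

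On chromosome 15, Sepp1, which encodes the selenium carrier selenoprotein P, is the gene nearest the start and had 0.942 (0.303 to 5.56, 5 read pairs) and 1.92 (0.993 to 5.2, 13 read pairs). The longest, Ghr, encodes the growth hormone receptor (chr15:3267760-3533492) and had 1.12 (0.688 to 2.61) and 1.89 (1.45 to 3.0). On chromosome 16, the olfactory receptor gene Olfr161 had 0.699 (0.143 to 7.74, 3 read pairs) and 3.34 (1.57 to 9.26, 10 read pairs). Crebbp, a histone acetyltransferase and coactivator (chr16:4084048-4213404), had 1.35 (0.815 to 3.06) and 2.45 (1.80 to 3.88). Rbfox1, a neuronal splicing factor and the longest gene of the interval, had 1.29 (1.03 to 2.02) and 1.07 (0.842 to 1.76).

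On chromosome 18 the vomeronasal receptor gene Vmn1r238 lies in a bin with 4.83 (0.659 to 24.7, 4 read pairs) and 5.38 (1.91 to 19.1, 7 read pairs), and Mpp7, a polarity scaffold, had 1.02 (0.585 to 3.97) and 1.88 (1.29 to 4.01). On chromosome 19 the 2 bins of Ighmbp2, a helicase gene and the first protein-coding gene there, had 7.92 (4.64 to 13.3, 33 read pairs) in WT and 3.42 (2.20 to 6.11, 49 read pairs) in the KO-labelled matrix. Macrod1, which removes ADP-ribose, had 1.15 (0.723 to 2.8) and 2.01 (1.40 to 3.50). The nuclear long non-coding RNAs Malat1 (chr19:5795690-5802671), found in speckles, and Neat1 (chr19:5824708-5845478), the scaffold of paraspeckles, had 1.58 (0.791 to 3.54) and 1.5 (0.688 to 5.16) in WT and 1.49 (0.904 to 3.05) and 1.26 (0.618 to 4.55) in the KO-labelled matrix. For every gene named here the counting intervals of these values with rDNA intervals overlapped between the matrices. In WT, Klhl29, Apob, Rbfox1, Ighmbp2, Malat1 and Neat1 had lower values with the other 14 intervals than with rDNA intervals. The remaining genes had higher ones. With those 14 intervals Vmn1r238 had 26.4 (17.4 to 41.8, 38 read pairs) and Ighmbp2 1.53 (1.04 to 3.27, 57 read pairs). Only for Ighmbp2 did the 2 WT counting intervals not overlap.

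The Firre locus itself had few contacts with these intervals. The 3 X chromosome bins that overlap it were joined to the rDNA intervals by 6 read pairs in WT, an O/E of 0.760 (0.189 to 4.27), and by 25 in the KO-labelled matrix, an O/E of 1.06 (0.672 to 2.58). With the other 14 intervals the bins had 1.14 (0.689 to 3.10) and 1.41 (1.05 to 2.33). At this depth a difference between the matrices was not detectable.

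**Figure D5:**
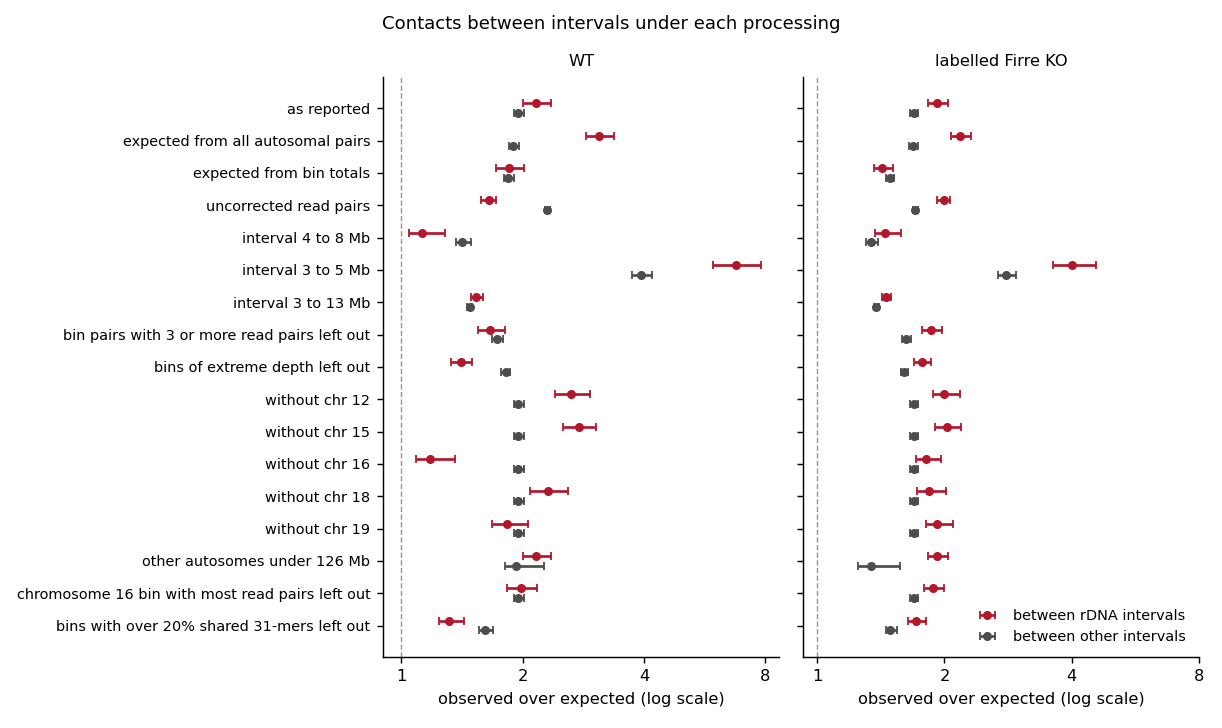
O/E (log scale) between rDNA intervals (red) and between the other 14 intervals (grey) as reported and under each other processing, in WT (left) and the KO-labelled matrix (right), with 95% counting intervals. In WT the order of red and grey changes with the processing, and in the KO-labelled matrix red lies right of grey in all but the expectation from bin totals.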

How the data were processed

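Reads of both Hi-C libraries of a group were pooled by the authors, mapped to mm9 and counted in 40 kb bins, and HiC-Pro 2.7.8 then balanced each matrix by its iterative (ICE) method. The deposited values are thus a balanced contact signal that sums to 1 common total for each kept bin. Each value was resolved into a whole number of read pairs and a weight per bin, and 100% of entries came out within 0.05 of a whole number. All coordinates are mm9, counted from 1, and chromosome lengths equalled those of the reference.

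Signal was summed over interchromosomal bin pairs kept in both matrices. O/E was the sum over its expectation from the mean of the chromosome pair. Counting intervals at the 95% level came from a gamma approximation for weighted Poisson counts, and those of ratios from a normal approximation on the log scale. For X chromosome read pairs they were exact Poisson intervals. Functions were tested on simulated data with known O/E. Windows for the background were 5 Mb long from 3 Mb, with at least 50 kept bins. Genes came from GENCODE of the same build. Named were all rDNA pairs, the 3 highest and 3 lowest other intervals in WT, and per interval the first and the longest protein-coding gene and 7 listed genes. Bins singled out by their read pairs were chosen after their values were seen. Members and lists were chosen with earlier results of these data known. With 1 matrix per group, no test was run. Python 3 with numpy and scipy was used.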

Additional observations from a re-analysis of the deposited data

How the results depend on the processing

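No paired analysis was possible because the libraries of each group were pooled in 1 matrix. The 9 results were the O/E of rDNA intervals with each other, with the other intervals and with interiors, the ratio of the contacts between rDNA intervals to those between the other intervals, each in WT and in the KO-labelled matrix, and the log2 difference of the matrices for contacts between rDNA intervals. Of 139 alternative values, 36 moved by less than the counting interval of the result, 86 moved by more, and 17 crossed 1, or 0 on the log2 scale. Some of those 17 held 1 or 0 within their counting interval, such as the KO-labelled ratio with the expectation from bin totals. The causes were not tested. Values are given as WT and KO-labelled. With the expectation taken from all autosomal pairs, the values were 3.09 and 2.17 between rDNA intervals, 1.83 and 1.73 with the other intervals, 1.2 and 1.17 with interiors, and 1.63 and 1.29 for the ratio of rDNA to other intervals, with a log2 difference of -0.51. With the expectation taken from the bins' interchromosomal totals, the values were 1.85 and 1.43 between rDNA intervals, 1.39 and 1.31 with the other intervals, 0.956 and 0.963 with interiors, and 1.00 and 0.961 for the ratio of rDNA to other intervals, with a log2 difference of -0.38. With uncorrected read pairs, the values were 1.65 and 1.99 between rDNA intervals, 2.13 and 1.71 with the other intervals, 1.19 and 1.22 with interiors, and 0.717 and 1.17 for the ratio of rDNA to other intervals, with a log2 difference of 0.27. For intervals from 4 to 8 Mb, the values were 1.13 and 1.45 between rDNA intervals, 1.17 and 1.33 with the other intervals, 1.05 and 1.08 with interiors, and 0.796 and 1.08 for the ratio of rDNA to other intervals, with a log2 difference of 0.36. For intervals from 3 to 5 Mb, the values were 6.76 and 4.01 between rDNA intervals, 3.68 and 2.76 with the other intervals, 1.2 and 1.26 with interiors, and 1.72 and 1.43 for the ratio of rDNA to other intervals, with a log2 difference of -0.76. For intervals from 3 to 13 Mb, the values were 1.54 and 1.46 between rDNA intervals, 1.31 and 1.36 with the other intervals, 1.04 and 1.06 with interiors, and 1.04 and 1.05 for the ratio of rDNA to other intervals, with a log2 difference of -0.08. Without busy bin pairs, the values were 1.66 and 1.85 between rDNA intervals, 1.44 and 1.61 with the other intervals, 1.08 and 1.12 with interiors, and 0.959 and 1.14 for the ratio of rDNA to other intervals, with a log2 difference of 0.16. Without the bins of the lowest or highest 5% of depth, the values were 1.41 and 1.77 between rDNA intervals, 1.49 and 1.55 with the other intervals, 1.07 and 1.12 with interiors, and 0.774 and 1.1 for the ratio of rDNA to other intervals, with a log2 difference of 0.34. Without the chromosome 16 bin from 3240001 to 3280000, the values were 1.98 and 1.88 between rDNA intervals, 1.67 and 1.66 with the other intervals, 1.08 and 1.12 with interiors, and 1.02 and 1.11 for the ratio of rDNA to other intervals, with a log2 difference of -0.08. Bins with over 20% of 31-base words found in the interval of another autosome were also left out. The values were then 1.32 and 1.71 between rDNA intervals, 1.35 and 1.5 with the other intervals, and 1.08 and 1.12 with interiors. The ratio of rDNA to other intervals was 0.817 and 1.15, with a log2 difference of 0.38. With interiors taken from 13 Mb to the chromosome end, O/E with them was 1.1 and 1.13. Against the 5 shortest other autosomes, the ratio was 1.12 and 1.43. Busy bin pairs were chosen by each matrix's own counts, so different bin pairs were left out of each matrix. The log2 difference without them is therefore no comparison of the matrices. When each rDNA chromosome was left out in turn, O/E between rDNA intervals ran from 1.18 to 2.75 in WT and from 1.81 to 2.03 in the KO-labelled matrix. With the other intervals it ran from 1.51 to 1.8 and from 1.62 to 1.7, and with interiors from 1.02 to 1.12 and from 1.08 to 1.14. The ratio ran from 0.605 to 1.41 and from 1.07 to 1.2, and the log2 difference from -0.44 to 0.61. Without chromosome 16 the WT ratio was 0.605 and the log2 difference 0.61, and without chromosome 19 they were 0.939 and 0.07. The alternatives without the chromosome 16 bin and without bins of 31-base words found in other intervals were chosen after seeing the data.

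Depth limited single bins most. The median member bin had 5 read pairs to other rDNA intervals in WT and 10 in the KO-labelled matrix, so values of genes and single bins have wide counting intervals. Pooling leaves no measure of the spread between cultures, and the labelled genotype cannot be told apart from the feeders and, where it differed, cell line. The KO-labelled matrix had over 2 times the share of read pairs between chromosomes, and its part in the differences between the matrices was not tested. Repeat arrays that the assembly leaves out were not analysed here, and satellite copies inside it, such as those of chromosomes 9 and 12, are part of the values.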
